A study of Oryza sativa Indica Group with 4 samples.

Results

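CESA4, CESA7 and CESA9 encode the 3 cellulose synthases of the rice secondary cell wall, and BC1 encodes a COBRA-like protein of the same walls. These 4 genes were measured by 5 probe sets among the 57194 probe sets other than controls, 2 for CESA4 (LOC4324625) and 1 each for CESA7 (LOC4348853), CESA9 (LOC4347093) and BC1 (LOC4333114). The probe sets were found through the platform's table of probe sets and genes. The genes were singled out because of their difference between the high and low grain number bulks, so that difference is described here without a test. All 5 probe sets passed the filter on dim probe sets, as did 34316 probe sets in all.

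RNA came from panicle primordia of Oryza sativa Indica Group at the stage the submitters number 0. The material was recombinant inbred lines from a cross of 2 cultivars, which the labels do not name. The high grain number group pooled the RNA of 10 lines with many grains per panicle, and the low grain number group that of 10 lines with few. Each group was hybridised to 2 Affymetrix rice arrays as biological replications, so there are 4 arrays, and the labels name no treatment. A bulk hides how its 10 lines differ, and the labels do not say whether the replications share lines.

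Cellulose is spun out at the plasma membrane by rosettes of cellulose synthase. In grasses one set of synthases builds the thin primary wall of growing cells. CESA4, CESA7 and CESA9 act together in thickened walls of fibres and vessels, and loss of any of them makes rice culms brittle. BC1, named after the brittle culm mutant, is anchored at the cell surface and takes part in cellulose assembly in those walls. A primordium is mostly dividing tissue, in which thickened walls are few.

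The arrays differed in brightness. The trimmed mean of the deposited intensities was 39.0 and 40.5 on the high arrays, against 36.5 and 55.3 on the low arrays, so low replicate 2 was the brightest, and the intensities below are quantile normalised. The ratio of 3' to 5' signal, which rises as RNA degrades or is incompletely copied, also differed between the groups. For actin it was 33.3 and 36.9 on the high arrays, against 42.2 and 47.8 on the low arrays, and a second actin probe pair gave 27.5 and 24.8 against 39.7 and 36.0. For GAPDH it was 51.9 and 34.4 on the high arrays, against 85.2 and 67.6 on the low arrays. The groups did not overlap in any of these 3 ratios, and their part in the results was not tested.

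All 3 synthases and BC1 had lower signal on both high arrays than on either low array, in at least 1 probe set per gene, as 17.6% of all tested probe sets did. The genes were chosen by this contrast, so nothing is read from that count. CESA7 had an intensity of 11.5 and 10.9 on the high arrays, against 109.6 and 106.1 on the low arrays. Its replicates lay closest together, within a ratio of 1.05 in the high group and 1.03 in the low group, and the mean of 11.2 ± 0.41 in the high bulks was 9.62-fold lower than the 107.9 ± 2.47 in the low bulks (SD, n = 2 each). In bulk tissue, fewer cells with thickened walls and less RNA per such cell cannot be told apart.

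CESA4 had 31.1 and 48.4 on the high arrays in its brighter probe set, against 142 and 204 on the low arrays. The lowest low array was 2.93 times the highest high array, and the mean of 39.7 ± 12.2 in the high bulks was 4.36-fold lower than the 173 ± 44.2 in the low bulks (SD, n = 2 each). CESA9 was dim. Its intensity was 2.75 and 6.90 on the high arrays, against 26.0 and 16.5 on the low arrays. Its mean of 4.83 ± 2.93 in the high bulks was 4.40-fold lower than the 21.2 ± 6.72 in the low bulks (SD, n = 2 each), a fold close to that of CESA4. The file holds no detection calls, so whether CESA9 stood above background on the high arrays is not known.

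BC1 varied most within the high group. It had 6.62 on high replicate 1 and 20.6 on high replicate 2, a ratio of 3.11, and it had 63.5 and 91.6 on the low arrays. The mean of 13.6 ± 9.88 in the high bulks was 5.70-fold lower than the 77.6 ± 19.8 in the low bulks (SD, n = 2 each), and the nearest arrays of the groups were 3.08-fold apart. CESA4, CESA9 and BC1 were each lower on high replicate 1 than on high replicate 2, by ratios of 1.55, 2.51 and 3.11. CESA7 had nearly the same intensity on both.

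**Figure D1:**
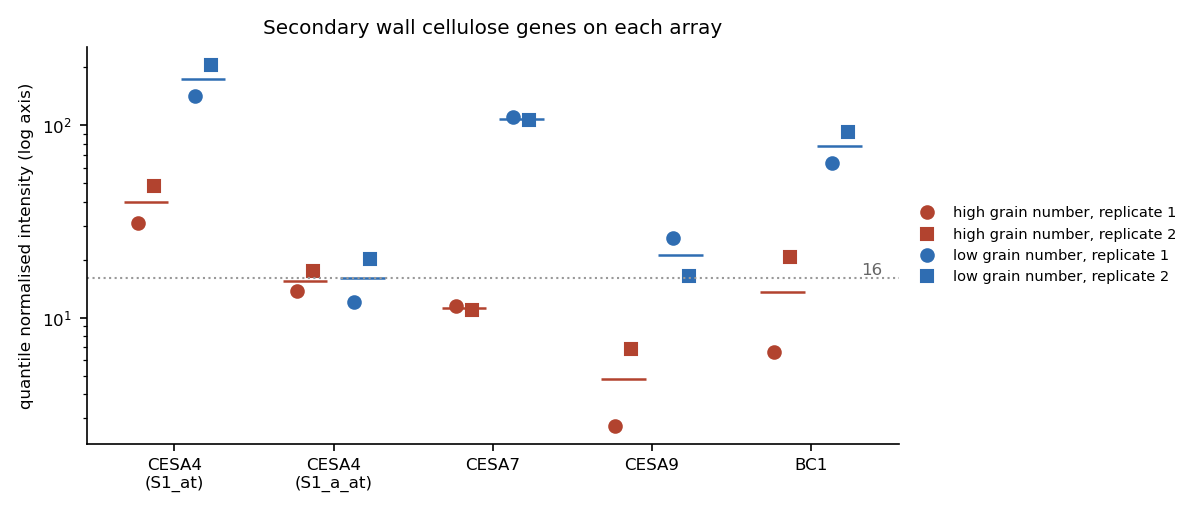
Quantile normalised intensity (log axis) of the 5 probe sets on each array, with high grain number in red left of low grain number in blue, circles for replicate 1, squares for replicate 2 and bars for group means. The dotted line marks 16, the constant added before taking log2. In CESA7, CESA9, BC1 and the S1_at probe set of CESA4 both high arrays lie below both low arrays, while the groups overlap in the S1_a_at probe set of CESA4.

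The second CESA4 probe set did not show the difference. It had 13.7 and 17.4 on the high arrays, against 12.1 and 20.1 on the low arrays, so the groups overlapped. Its log2 difference was -0.016 ± 0.21 (SE), against -1.76 ± 0.25 for the brighter probe set of the same gene. Both are paired with the same cDNA accession, and their names differ only in the ending, S1_at for the brighter and S1_a_at for the dimmer. In Affymetrix naming the letter a marks a probe set whose probes match several transcripts of a gene. The ratio of the brighter to the dimmer probe set was 2.28 and 2.78 on the high arrays, against 11.7 and 10.2 on the low arrays. The CESA4 difference therefore rests on 1 of its 2 probe sets, and averaged over both it was -0.89 on the log2 scale.

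On the log2(intensity + 16) scale the difference, high minus low, was -2.19 ± 0.20 (SE) for CESA7, -1.76 ± 0.25 for CESA4, -1.68 ± 0.27 for BC1 and -0.83 ± 0.21 for CESA9. The constant of 16 exceeds every CESA9 value of the high group and both CESA7 values of that group, which pulls their differences towards 0. With a constant of 1 the differences were -3.16 for CESA7, -2.59 for BC1, -2.11 for CESA4 and -2.0 for CESA9, so the order of CESA4 and BC1 depended on this constant. Among the tested probe sets, ranked from the most negative difference, CESA7 stood at 34, CESA4 at 66, BC1 at 73 and CESA9 at 408.

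Ranks within an array do not depend on scaling between arrays. CESA7 stood above 63.1% and 62.4% of probe sets on the high arrays, against 87.0% and 86.7% on the low arrays. CESA4 stood above 74.7% and 79.2% on the high arrays, against 89.3% and 92.0% on the low arrays. BC1 stood above 53.2% and 70.3% on the high arrays, against 81.9% and 85.4% on the low arrays. CESA9 had the widest range, with 35.3% and 54.1% on the high arrays, against 72.8% and 67.7% on the low arrays. With the brighter CESA4 probe set, no array of one group reached the other group in any of the 4 genes. Quantile normalised intensities are set by these ranks, so this restates the separation in the intensities and is no second result.

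In the fit across all probe sets (limma, Benjamini-Hochberg adjusted p under 0.05, two-sided), 3 of the 4 genes passed, CESA4, CESA7 and BC1, all lower in the high bulks. Of all tested probe sets, 0.568% passed, and 0.414% passed as lower. As the contrast chose the genes, this count too is only a description. The number passing was 1, CESA7, without high replicate 1 or without low replicate 2, and 2, CESA4 and CESA7, without low replicate 1. With no filter on dim probe sets it was 0, and none of the 57194 probe sets passed, although 3849 had an unadjusted limma p under 0.05.

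The synthases of one rosette work together, so their signals were set against each other on each array. Probe sets differ in how strongly they bind, so the size of such a ratio is no measure of how much of each RNA is present, and only its change between arrays can be read. CESA4 over CESA7, with the brighter CESA4 probe set, was 2.71 and 4.43 on the high arrays, against 1.29 and 1.93 on the low arrays. Both high arrays were above both low arrays without an added constant. With 16 added the log2 ratios were 0.78 and 1.26 on the high arrays, against 0.33 and 0.85 on the low arrays, so the groups overlapped. The mean log2 ratio differed by 1.13 without a constant and by 0.43 with 16 added. With 64 added the change was 0.0071, so its size depends on how the dim CESA7 values of the high group are treated.

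CESA4 over CESA9 was 11.3 and 7.01 on the high arrays, against 5.46 and 12.4 on the low arrays, so the groups overlapped without a constant. With 16 added they did not, the log2 ratios being 1.33 and 1.49 on the high arrays, against 1.91 and 2.76 on the low arrays. The change in its mean log2 ratio was 0.11 without an added constant and -0.93 with 16 added, with opposite signs. CESA7 over CESA9 was 4.18 and 1.58 on the high arrays, against 4.22 and 6.44 on the low arrays. Without a constant the groups were separated by the small gap from 4.18 to 4.22, where the high value rests on the CESA9 intensity of 2.75. With 16 added the log2 ratios were 0.55 and 0.23 on the high arrays, against 1.58 and 1.91 on the low arrays, a wider gap. The change in the mean log2 ratio was -1.02 without a constant and -1.35 with 16 added. The SD of the log2 ratio without a constant was 0.99 between the high arrays and 0.43 between the low arrays. No test of these ratios is given, since they come from the contrast that chose the genes.

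**Figure D2:**
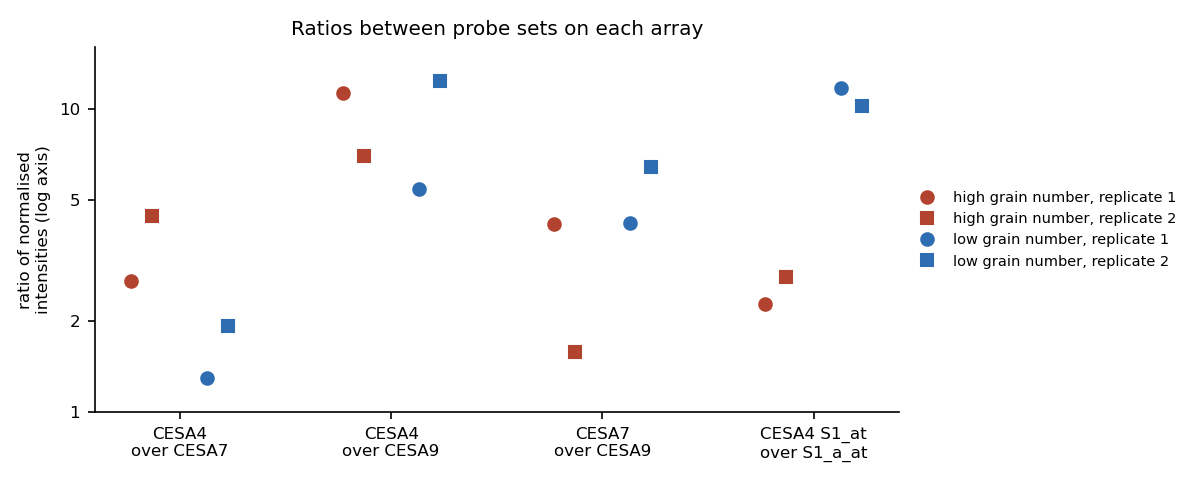
Ratio of quantile normalised intensities (log axis) between pairs of probe sets on each array, with no constant added, and with high grain number in red left of low grain number in blue. CESA4 over CESA7 is higher on both high arrays, CESA4 over CESA9 overlaps, CESA7 over CESA9 nearly touches at 4.18 and 4.22, and the 2 probe sets of CESA4 differ in ratio between the groups, with 2.28 and 2.78 against 11.7 and 10.2.

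Cellulose synthases of the primary wall were measured on the same arrays. None of the 6 genes on the array passed limma's threshold, 1 had an unadjusted p under 0.05, as 8.24% of all tested probe sets did, and their median log2 difference was 0.04, against 0.01 over all tested probe sets. CESA6 (LOC4342850) had 700.0 and 921 on the high arrays, against 896 and 919 on the low arrays (log2 difference -0.17 ± 0.18). CESA1 (LOC4337958) had 609 and 532 on the high arrays, against 501 and 620 on the low arrays (0.03 ± 0.19), and CESA3 (LOC4343049) had -0.25 ± 0.21. In both CESA1 and CESA6 the groups overlapped. CESA5 (LOC4334710) had 560 and 528 on the high arrays, against 379 and 509 on the low arrays (0.30 ± 0.20). CESA8 (LOC4342699) had 139 and 142 on the high arrays, against 85.6 and 105 on the low arrays (0.50 ± 0.21, limma adjusted p = 0.562). In both CESA5 and CESA8 the high arrays lay above the low arrays. The share of all tested probe sets in that order is not given here. The opposite order held in 17.6% of them, so nothing is read from this separation. CESA2 (LOC4334515) had 0.06 ± 0.20. The second probe sets of CESA1, CESA2 and CESA3 gave 0.41, 0.35 and 0.35, and for CESA3 this is opposite in sign to the first.

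Of the 9 COBRA-like relatives of BC1 named in the list, 3 were measured. None passed in limma, 0 of them even at an unadjusted p under 0.05, and the median log2 difference was 0.10. BC1L2 (LOC4333115), which lies next to BC1 in the gene table, had 170 and 181 on the high arrays, against 185 and 142 on the low arrays, a log2 difference of 0.10 ± 0.21. BC1L9 (LOC4349011) had 0.23 ± 0.29. BC1L6 (LOC4343844) was dim, with 14.175 and 8.975 on the high arrays, against 25.45 and 16.35 on the low arrays (log2 difference -0.42 ± 0.22). Its high arrays lay below its low arrays, as in BC1 and in 17.6% of all tested probe sets. The differences of BC1 and of its relatives were not tested against each other.

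**Figure D3:**
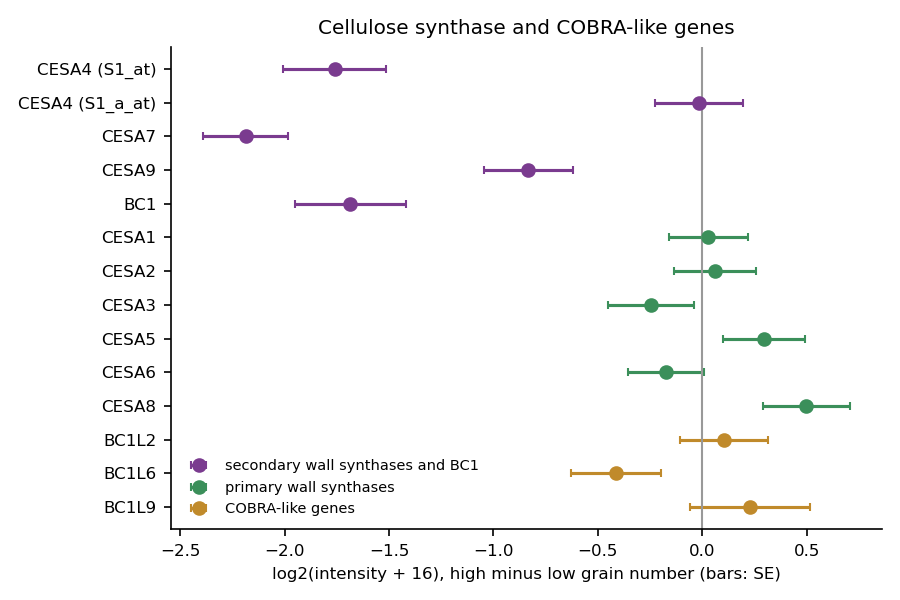
Difference in log2(intensity + 16), high minus low grain number, with SE as bars, for the 4 genes (purple, CESA4 by both probe sets), the primary wall synthases (green) and the COBRA-like genes (orange). CESA7 is at -2.19, the S1_at probe set of CESA4 at -1.76, BC1 at -1.68 and CESA9 at -0.83, while the S1_a_at probe set of CESA4 is at -0.016 and the relatives run from -0.42 to 0.50.

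Other genes of wall building were followed through lists. Of 32 names of genes that make monolignols, the units of lignin, 7 were measured. All 7 were negative, with a median of -0.30, but 0 of the 7 passed in limma. Of the 7, 1 had an unadjusted limma p under 0.05, as 8.24% of all tested probe sets did. The member with the smallest p was 4CL3 (LOC4328485), a 4-coumarate:CoA ligase, with 4.72 and 8.32 on the high arrays, against 21.1 and 40.2 on the low arrays (log2 difference -1.02 ± 0.24, limma adjusted p = 0.119). 4CL1 (LOC4345054) had -0.34 ± 0.20. 4CL4 (LOC4341718) had log2 differences of opposite sign in its 2 probe sets, -0.60 and 0.17. 4CL3 passed in 3 of 13 settings of the analysis, which gave adjusted p values from 9.91e-04 to 0.717 (limma).

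Laccases and cinnamyl alcohol dehydrogenases, which act late in lignin formation, had a median of -0.12 over 11 measured members of 42 named. Of the 11, 1 passed, lower in the high bulks, as 0.414% of all tested probe sets did. It was the laccase LAC10 (LOC4332400), with 33.2 and 58.8 on the high arrays, against 120 and 144 on the low arrays, a log2 difference of -1.28 ± 0.25 (limma adjusted p = 0.0498). Without high replicate 1, low replicate 1 or low replicate 2 the adjusted p was 0.298, 0.232 and 0.415. Over 13 settings it ran from 7.34e-04 to 0.698, and LAC10 passed in 7. LAC4 (LOC4327500) had -0.47 ± 0.20 (limma adjusted p = 0.566), and among positive differences CAD3 (LOC4348690) had 0.14 ± 0.27.

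Xylan synthesis genes, which build the main matrix polysaccharide of grass walls, had a median of 0.09 over 8 measured members of 25 named. In limma 0 of the 8 passed with or without adjustment of p. XAT2 (LOC4329205), an arabinosyltransferase of xylan, had 0.34 ± 0.21, and IRX9L (LOC4325514) had -0.16 ± 0.20. Genes that supply UDP-glucose, the substrate of cellulose synthase, had a median of -0.23 over 6 measured members, all of them sucrose synthases. In limma 0 of the 6 passed, and 1 had an unadjusted p under 0.05, as 8.24% of all tested probe sets did. SUS1 (LOC4333062) had log2 differences of opposite sign in its 2 probe sets, -0.18 and 0.54. In that list the sucrose synthase SUS3 (LOC4343910) had 0.73 ± 0.24 (limma adjusted p = 0.387) and SUS5 (LOC4335447) had -0.40 ± 0.21. Of the 14 names in the list of other brittle culm and cellulose deposition genes, only 3 were measured, so most of that list is not covered here. Those 3 had a median of 0.08, and in limma 0 passed with or without adjustment of p. They were the kinesin GDD1 (LOC4346402, 0.11 ± 0.17), the endoglucanase GLU1 (LOC4332724, -0.01 ± 0.18) and GLU2 (LOC4334029, 0.08 ± 0.22). Of the 23 names in the list of secondary wall transcription factors, 0 were matched to a gene, so these regulators were not analysed here.

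Markers of tissues the primordia could hold were measured too. Of 10 measured young panicle genes 0 passed in limma. Of the 10, 2 had an unadjusted limma p under 0.05, as 8.24% of all tested probe sets did. The log2 differences of the 10 genes ran from -1.12 to 0.51 with a median of -0.09. They had a summed intensity of 2207 and 2441 on the high arrays, against 3228 and 2493 on the low arrays. The 2 genes were SPL14 and MADS22. SPL14 (LOC4345998), a transcription factor gene that acts in panicle branching, had 144.5 and 185 on the high arrays, against 492 and 282 on the low arrays (log2 difference -1.12 ± 0.26, limma adjusted p = 0.122). MADS22 (LOC4330805), a MADS-box gene, had 178 and 328 on the high arrays, against 526 and 427 on the low arrays (-0.92 ± 0.26, limma adjusted p = 0.24). In both genes the high arrays lay below the low arrays, as in 17.6% of all tested probe sets. Each passed only with the replicate number as a block. RFL (LOC4336857), the rice relative of LEAFY, had the smallest p among the positive differences, with 0.51 ± 0.32. Of 4 leaf photosynthesis genes 0 passed in limma with or without adjustment of p, and their sum, mostly CAB2R, was 2569 and 2041 on the high arrays, against 2612 and 2182 on the low arrays.

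Anther and tapetum markers were, in sum, also lower on both high arrays. Their summed intensity over 9 genes was 1500.3 and 1524 on the high arrays, against 2140.3 and 2785 on the low arrays. Of the 9, 1 passed, lower in the high bulks, as 0.414% of all tested probe sets did. That was RTS (LOC4326940), a tapetum gene, which stood near 0 on the high arrays, at 1.52 and 0.88, and at 224 and 553 on the low arrays. OSC6 (LOC4350790), a lipid transfer protein of the tapetum, had 26.2 and 293 on the high arrays, against 650 and 993 on the low arrays (log2 difference -2.84 ± 0.65, limma adjusted p = 0.115). Over 13 settings its adjusted p ran from 1.96e-12 to 0.698 (limma), and it passed in 4. The log2 difference of OSC6 was -1.41 without high replicate 1 and -4.28 without high replicate 2. The part of this marker difference in the cellulose gene results was not tested. The other 7 markers had differences from -0.36 to 0.20, and none of them passed. Summed without RTS and OSC6, the markers overlapped between the groups, so the lower sum rests on RTS and OSC6. The brightest of the other 7 was MSP1 (LOC4324355), with 1236 and 1041 on the high arrays, against 1080 and 1010 on the low arrays (log2 difference 0.12 ± 0.16).

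Selected lines may carry the same parental segments, so the 5 genes on each side of each gene were examined, in the order of the gene table, which is of the Japonica group. Of the 40 neighbours, 20 were measured and 1 passed the threshold, higher in the high bulks, as 0.154% of all tested probe sets did. That neighbour was LOC4333113, which lies 2 genes from BC1 and has no name in the table. It had 80.2 and 103.5 on the high arrays, against 16.9 and 17.7 on the low arrays, the opposite direction to BC1. Its log2 difference was 1.69 ± 0.21 (limma adjusted p = 0.00599), near in size to the -1.68 of BC1. Without low replicate 1 or low replicate 2 the adjusted p was 0.0785 and 0.0809, and over 13 settings it ran from 4.14e-05 to 0.283. The other 19 measured neighbours had differences from -0.52 to 0.30. Around CESA7 the 6 measured neighbours lay between -0.06 and 0.14, around CESA9 the 3 measured lay between -0.11 and 0.19, and around CESA4 the 7 measured lay between -0.52 and 0.30.

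**Figure D4:**
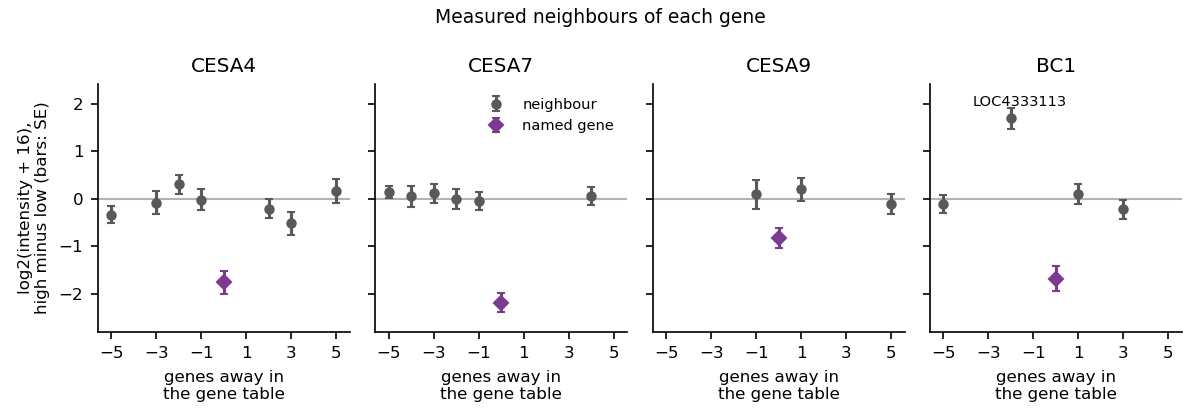
Difference in log2(intensity + 16), high minus low grain number, with SE as bars, for each gene (purple diamond) and its measured neighbours (grey), by the number of genes away in the gene table. LOC4333113, 2 genes from BC1, is at 1.69, and the other 19 measured neighbours lie between -0.52 and 0.30.

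Other genes with a similar pattern were ranked by the root mean square distance between centred log2 values over the 4 arrays and the mean of CESA4, CESA7 and BC1. Such a ranking over 4 arrays mostly returns genes with the same group difference, so it is a description. The nearest genes were LOC4332568 (distance 0.098), LOC4331781 (0.11), the class III peroxidase gene PRX74 (LOC4339222, 0.12), LOC4335760 (0.13), LOC4339108 (0.15) and LOC4343997 (0.15). LOC4332568 had 27.2 and 34.7 on the high arrays, against 137 and 149 on the low arrays. PRX74 had 18.2 and 34.1 on the high arrays, against 134 and 185 on the low arrays. Their log2 differences were between -1.68 and -2.07, much like that of CESA4. CESA4 itself lay at 0.093, BC1 at 0.16, CESA7 at 0.24 and CESA9 at 0.57, and 380 other probe sets were nearer to the mean than CESA9. The first 3 of these distances include the gene's own part in the mean.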

How the data were processed

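The deposited table gives a linear intensity for each probe set on each array. The submitters' processing notes name the Affymetrix software GCOS 1.2, and the scaling target is not given in the sources used here. The 187 control probe sets were left out. Intensities were quantile normalised, since the arrays differed in brightness, and log2 was taken after adding 16, so changes of dim probe sets are understated. The test left out probe sets whose mean log2 value fell under the 40th percentile. It used limma 3.58.1 under R 4.3.3, fitting group alone, with trended eBayes and p-values adjusted over all tested probe sets by Benjamini-Hochberg. The fit was tested on simulated data. The number of arrays limits the precision. The labels do not say what the replications share, so p-values measure only the spread between arrays of a group.

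Genes were named through the platform's table and NCBI's gene table (ASM3414082v1, Japonica). The files name no genome build, so no coordinates are given. The 11 gene lists name 219 members, matched by symbol or by a synonym of 1 gene, and 67 genes were tested. The probe set with the highest mean stands for a gene. The members and the lists were chosen with earlier results of these data known. Named genes are all probe sets of the 4 genes, list members past the threshold or with the smallest p in each direction (of which fewer may be named), neighbours past the threshold and the 6 genes of nearest pattern. GDD1, GLU1, GLU2, 4CL4, SUS1, MADS22, OSC6, MSP1 and the primary wall synthases beyond that rule were added after their values were seen. Alternatives were the deposited scaling, median centring, constants of 1 and 64, other filters, no trend, a replicate block and leaving out each array.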

Additional observations from a re-analysis of the deposited data

How the results depend on the processing

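The 4 genes kept a negative difference under each alternative run. The sign could hardly change, since both high arrays lay below both low arrays in the probe set that stands for each gene. CESA4 (-1.76) had -2.11 with a constant of 1, -1.19 with 64 and -0.89 averaged over its probe sets. CESA7 (-2.19) had -2.29 with the deposited scaling, -2.28 after median centring, -3.16 with a constant of 1 and -1.19 with 64. CESA9 (-0.83) had -2.0 and -0.31, and BC1 (-1.68) had -2.59 and -0.87, with constants of 1 and 64. Without 1 array the ranges were -2.02 to -1.48 for CESA4, -2.22 to -2.11 for CESA7, -0.99 to -0.67 for CESA9 and -2.08 to -1.35 for BC1. These fits take the spread of the lone array from the other group. The change in log2 CESA4 over CESA7 (0.43) was 1.05 with a constant of 1, 0.0071 with 64, 1.30 with both CESA4 probe sets and 1.13 with no constant, an alternative chosen after seeing the data. That of CESA4 over CESA9 (-0.93) was -0.11 with a constant of 1, -0.055 with both probe sets and 0.11 with no constant, which reversed it. That of CESA7 over CESA9 (-1.35) was -0.89 with 64 and -1.02 with no constant. Without 1 array these changes ran from 0.17 to 0.67, from -1.36 to -0.53 and from -1.53 to -1.16. The constant acts by its construction on dim probe sets, and the cause of the other shifts was not tested.

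Of all probe sets, 195 passed (53 higher, 142 lower). The number was 391 after median centring (59 higher, 332 lower), 128 with a constant of 1 (37 higher, 91 lower), 0 with no filter (limma, 3849 at an unadjusted p under 0.05), and from 53 to 229 without 1 array. With the deposited scaling it was 270 (37 higher, 233 lower). The 4 genes had 3 passing, 2 with a constant of 1, 4 after median centring, 0 with no filter and 1 to 3 without 1 array. List members passing were 2 in all, 4 with the deposited scaling or median centring, 1 with a constant of 1 or the filter at the 60th percentile, 0 with no filter and 1 to 3 without 1 array. Neighbours passing were 1, 0 with no filter and 0 to 1 without 1 array. With the replicate number as a block 654 probe sets (189 higher, 465 lower) and 6 list members passed, and 3 of the 4 genes. Arrays of the same number share only that number in the labels, and their deviations from the group means correlated at 0.11 across probe sets, which are not independent.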
